A study of Mus musculus with 18 samples.

Results

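Transfer RNAs (tRNAs) for the acidic residues aspartate (Asp) and glutamate (Glu) and for their amides asparagine (Asn) and glutamine (Gln) were examined in 18 small RNA libraries from sorted cells of the mouse brain. Members were all entries for cytosolic tRNA genes named after one of these 4 residues, which made 64 of the 407 tRNA gene copies in the table. Copies that share a family number, and so a mature sequence, form an isodecoder. Counts of the copies were summed to 25 of the 218 tRNA isodecoders, and these were summed again to 6 anticodons, namely Asp-GTC, Glu-CTC, Glu-TTC, Asn-GTT, Gln-CTG and Gln-TTG. Brains came from WT (wild type) mice and from homozygous Atxn2-CAG100-KIN mice (here KIN), in which Atxn2 carries a knocked-in CAG expansion, a model of spinocerebellar ataxia type 2, on a C57BL/6 background and at 10 months of age. As the study describes it, each dissociated brain gave microglia by beads against CD11b, then astrocytes by beads against ACSA-2, and then neurons as the cells left after the other cell types had been bound. Each of the 6 groups of fraction and genotype held 3 libraries. The study compared KIN and WT littermates of the same sex, with male and female pairs, and sex was not part of any fit here. The knock-in is present in every cell of the KIN mice, so a fraction shows its cells inside a mutant brain.

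A tRNA brings its amino acid to the ribosome and reads the codon with the anticodon, whose first base may pair loosely with the last base of the codon. Gln-CTG reads the codon CAG, the unit of the expanded Atxn2 repeat, and Gln-TTG reads CAA. Glu-CTC and Glu-TTC read GAG and GAA, whereas Asp and Asn are each read by a single anticodon that starts with G. In tRNA-Asp and tRNA-Asn that G can be replaced by queuosine, a base made with a nutrient from gut bacteria, and tRNA-Asp is also methylated by Trdmt1. The U that opens the anticodons of Glu-TTC and Gln-TTG is modified by the Elongator complex and thiolated. When stressed cells cut tRNAs in the anticodon loop, tRNA-Glu and tRNA-Asp are common sources of the resulting 5′ fragments, and small RNA libraries take up such fragments together with longer tRNA reads.

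Mature sequences were read from the GRCm39 genome because reads of near-identical tRNAs cannot be separated by name alone. A search for the conserved tRNA structure found 62 loci with 23 distinct sequences for these 6 anticodons, against 64 copies and 25 isodecoders in the table. For 7 isodecoders the anticodon and the number of copies matched 1 sequence only. They are the leading isodecoder of each anticodon and Gln-CTG-3, and 6 of them are shown here as DNA from 5′ to 3′, in lower case with the anticodon in capitals.
Asp-GTC-1: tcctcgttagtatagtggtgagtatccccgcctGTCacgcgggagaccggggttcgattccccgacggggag
Gln-CTG-2: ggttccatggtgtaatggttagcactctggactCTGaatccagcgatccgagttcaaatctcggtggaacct
Gln-CTG-3: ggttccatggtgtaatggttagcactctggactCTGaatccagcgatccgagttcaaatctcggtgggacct
Glu-TTC-1: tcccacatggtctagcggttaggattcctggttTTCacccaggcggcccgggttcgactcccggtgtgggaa
Gln-TTG-3: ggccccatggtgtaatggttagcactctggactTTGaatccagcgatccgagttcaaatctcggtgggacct
Asn-GTT-3: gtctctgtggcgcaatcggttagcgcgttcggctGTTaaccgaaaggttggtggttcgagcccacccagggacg
Gln-CTG-2 and Gln-CTG-3 differed at 1 of 72 bases and shared a run of 67, so that most reads of one would also match the other. Gln-TTG-3 differed from Gln-CTG-2 at 4 bases.

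The genome held 13 loci of the Asp-GTC-1 sequence, 9 of Asn-GTT-3, 4 each of Gln-CTG-2 and Glu-TTC-1, 3 of Gln-CTG-3, all on chromosome 3, and 2 of Gln-TTG-3, both on chromosome 13. Of the 62 loci, 29 lay inside a gene model of GENCODE vM39 and 10 overlapped an exon. The results below also turn on minor isodecoders whose names could not be tied to a sequence, since several sequences have the same copy number. A candidate for Glu-TTC-2 and Glu-TTC-3 is shown first, then one for Glu-CTC-2 and Glu-CTC-5, and then the 2 single-locus sequences found for Asp-GTC-2, Asp-GTC-3 and Asp-GTC-4, each named by its chromosome. Further glutamate candidates are not shown, and whether reads counted for the minor glutamate isodecoders came from the abundant ones was not tested.
Glu-TTC, chromosomes 1 and 14: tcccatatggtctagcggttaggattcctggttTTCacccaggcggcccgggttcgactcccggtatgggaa
Glu-CTC, chromosome 3: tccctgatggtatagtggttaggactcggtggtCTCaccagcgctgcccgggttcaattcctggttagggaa
Asp-GTC, chromosome 10: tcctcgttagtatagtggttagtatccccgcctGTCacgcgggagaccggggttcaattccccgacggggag
Asp-GTC, chromosome 4: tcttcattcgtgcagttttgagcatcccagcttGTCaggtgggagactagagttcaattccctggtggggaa
The first of these, at chr1:34473893-34473964 (minus strand, in an exon of the noncoding gene Gm37233) and chr14:79719108-79719179 (plus strand, in an intron of Elf1), differed from Glu-TTC-1 at 2 bases. The Glu-CTC sequence lies at chr3:123692836-123692907 (minus strand), inside an intron of the noncoding gene Gm64858, which runs the other way. The Asp-GTC sequence at chr10:91017959-91018030 (minus strand), in no gene model, differed from Asp-GTC-1 at 2 bases, and the one at chr4:131230033-131230104 (plus strand), in an exon of the long noncoding RNA gene Gm831, at 20.

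Libraries held between 1211118 and 4316748 counts, of which between 5747 and 224501 fell on the members, with the fewest in replicate 1 of WT neurons. Atxn2 gave at most 10 counts in any library, too few to check the genotype. The microglial miRNA list (3 miRNAs) summed to between 2835 and 5914 CPM (counts scaled to the same library total) in microglia and to at most 48.5 CPM in astrocytes. The neuronal list (5 miRNAs, among them miR-124-3p) summed to between 53.7 and 258 CPM in the neuron libraries but to between 1147 and 3402 CPM in the astrocyte libraries, so the label of the neuron fraction was not borne out by these miRNAs. No miRNA of either list was at 0 throughout a group. Equal amounts of RNA entered the libraries, and in bulk samples fewer cells of a type and less RNA per cell cannot be told apart.

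The members differed widely in level. Glu-CTC was the most abundant anticodon in CPM per 100 bases of mature tRNA, with a mean of 20030 over the 18 libraries, followed by Asp-GTC (12396), Gln-CTG (5904), Glu-TTC (5255), Gln-TTG (3006) and Asn-GTT (977). Glu-CTC stood above Asp-GTC in 17 of 18 libraries, and Asp-GTC above Gln-CTG, like Gln-TTG above Asn-GTT, in all 18. Gln-CTG and Glu-TTC did not keep a fixed order, since Gln-CTG was the higher in 13 libraries only. Each anticodon rested on 1 or 2 isodecoders. Glu-CTC-1 held 99.7% of the Glu-CTC counts and 42.0% of all member counts, and Asn-GTT-3 held 98.8% of the Asn-GTT counts. Asp-GTC was split between Asp-GTC-1 with 78.0% over 13 copies and Asp-GTC-2 with 21.0% on 1 copy. Gln-CTG was split between Gln-CTG-2 (59.1%) and Gln-CTG-3 (38.6%), Gln-TTG between Gln-TTG-3 (72.3%) and Gln-TTG-1 (26.9%), and Glu-TTC between Glu-TTC-1 (60.6%) and Glu-TTC-2 (37.3%). How far the placing of reads that match both Gln-CTG-2 and Gln-CTG-3 set their split was not tested. Calls of these 2 isodecoders below are not independent of each other. The 6 most abundant isodecoders took 86.4% of the member counts, and 5 isodecoders had at most 100 counts over all libraries. Copies of 1 isodecoder differed at most 1.03-fold in counts because a read that fits several identical copies was placed on one of them, and so copies are not described singly.

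**Figure D1:**
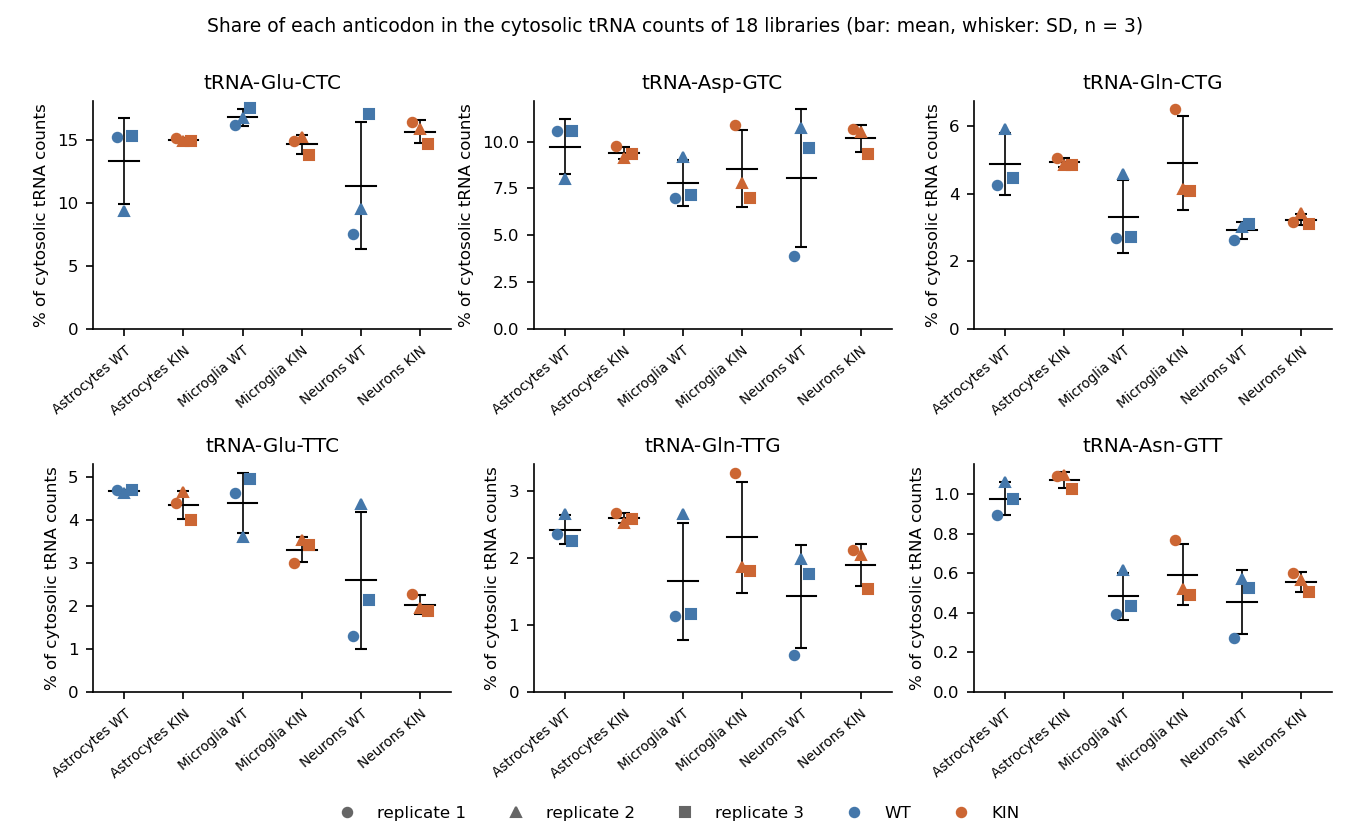
Percent of the cytosolic tRNA counts of a library (y axis) taken by each member anticodon (panels), for the 6 groups of fraction and genotype (x axis), with a point for each library, marked by replicate number, and the mean ± SD of 3 as bars. Glu-CTC took between 13.8% and 17.6% in all microglia libraries, whereas WT neuron libraries ranged from 7.53% to 17.1%.

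The question of the study was how KIN cells of each fraction differ from WT cells. In astrocytes, the minor glutamate isodecoder Glu-TTC-3 rose in KIN. It stood at 77.6, 81.8 and 82.1 CPM (scaled by TMM factors, as are the CPM in the comparisons that follow) in the WT libraries and at 170, 192 and 172 CPM in the KIN libraries, so the groups were far apart and each group was tight. The log2 fold change (log2FC) of KIN over WT was 1.15 ± 0.14 (SE, n = 3 each), with an adjusted p of 0.00297 by the quasi-likelihood test of edgeR. Its share of the Glu-TTC counts, which does not depend on the scaling of the library, was 1.60%, 1.60% and 1.84% in WT and 3.21%, 3.07% and 3.38% in KIN. Its neuronal share was higher still, where the WT libraries had 5.02%, 4.59% and 4.01% and the KIN libraries, which overlapped with them, 4.69%, 5.49% and 4.52%. Calls required an absolute log2FC of 1 or more together with an adjusted p not above 0.05, and Glu-TTC-3 was the only one of 21 tested members to be called, where 8.23% of all features were. The other 4 isodecoders did not reach 5 counts in 2 libraries. Glu-TTC-3 was called in each of the 6 fits that left out 1 library, but not with TMM factors taken from mature miRNA alone, where its log2FC was 0.42, nor with plain library totals, where it was 0.997 at an adjusted p of 0.00458, nor in 1 edgeR fit of all 18 libraries, where it was 1.17 at an adjusted p of 0.225.

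All 6 anticodons had higher values in KIN than in WT astrocytes under the main scaling, 2 of them within the adjusted p limit and none called, and all 6 were lower there with TMM factors from mature miRNA alone. At an adjusted p of at most 0.05 with no limit on the fold there were 5 of 21 isodecoders, against 11.4% of all features, and all 5 were higher in KIN. Glu-CTC-1 had 15744, 10407 and 14669 CPM in WT and 18383, 20108 and 19067 CPM in KIN, which gave a log2FC of 0.50 ± 0.13 (edgeR adjusted p 0.0419). The WT libraries of Glu-CTC-1 were uneven, with replicate 2 the lowest, yet none reached the KIN libraries. Gln-TTG-3 had a log2FC of 0.49 ± 0.12 (edgeR adjusted p 0.0365), Asn-GTT-3 of 0.45 ± 0.12 (0.0409) and Asp-GTC-2, the single copy with the most counts, of 0.41 ± 0.09 (0.027). Summed by anticodon, Glu-CTC (log2FC 0.51 ± 0.13, edgeR adjusted p 0.039) and Asn-GTT (0.45 ± 0.12, 0.0447) passed the same limit, which 11.1% of features did in that fit. Gln-TTG (0.41 ± 0.12), Asp-GTC (0.28 ± 0.09), Gln-CTG (0.32 ± 0.15) and Glu-TTC (0.22 ± 0.10) had adjusted p-values between 0.0518 and 0.163. The miRNA factors moved the median log2FC of all features from −0.197 to −0.902. Without WT replicate 2 the number of isodecoders within the adjusted p limit was 10, and without any of the other 5 libraries it was 1, namely Glu-TTC-3, with 4 and 0 anticodons respectively, so these counts hung on single libraries. The calls over all features moved likewise. They were 456 of 5541 in the main fit, 1484 of 5210 without WT replicate 2, and between 41 and 69 without 1 of the others.

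In the astrocyte comparison 17 of the 21 members were higher in KIN, where 41.4% of all features were, and the median member log2FC was 0.33 against −0.20 for all features. In 12 members the WT and KIN libraries did not overlap, where this held for 36.3% of features. The 12 include Gln-TTG-4, with 2 counts in each WT library and 3, 6 and 7 in KIN. It reached 5 counts in 2 libraries only through KIN and is also among the 17 higher members. The other cytosolic tRNAs were also mostly higher, 123 of 155 with a median of 0.24, and no difference from them was tested. The few members with a lower value in KIN were rare isodecoders such as Asp-GTC-4, which had 42.3, 62.2 and 39.5 CPM in WT and 35.5, 36.9 and 33.4 CPM in KIN (log2FC −0.45 ± 0.23, edgeR adjusted p 0.196). The oligodendrocyte miRNA list (3 miRNAs, none at 0) moved with genotype in this fraction, with sums of 1770 to 3035 CPM in WT and 3351 to 5112 CPM in KIN. The microglial list (3 miRNAs, none at 0) did so at a low level, with 10.2 to 12.6 CPM in WT and 24.99 to 48.5 CPM in KIN. The part of either list in the result was not tested.

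In microglia, values of nearly all members were higher in KIN, and no member was called by edgeR. Gln-CTG, the anticodon of the CAG codon, had the largest difference of the 6 with all libraries, whereas Gln-TTG was ahead without WT replicate 2 (log2FC 2.17 against 2.03). It had 2117, 5705 and 1872 CPM in WT and 10915, 6746 and 7206 CPM in KIN. The groups did not overlap, but WT replicate 2 lay near the KIN libraries and KIN replicate 1 far above all others. The log2FC was 1.36 ± 0.39 (edgeR adjusted p 0.058). Gln-TTG (1.22 ± 0.48, 0.143), Asn-GTT (1.12 ± 0.35, 0.0768) and Asp-GTC (0.98 ± 0.32, 0.0885) followed, and the glutamate anticodons differed least, with a log2FC of 0.70 ± 0.25 for Glu-CTC (edgeR adjusted p 0.115) and 0.54 ± 0.21 for Glu-TTC (0.149). Of Glu-CTC the 3 KIN libraries had 25034, 24983 and 24447 CPM and the WT libraries 12840, 20926 and 12126. The KIN values were thus close together and the WT values again uneven.

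Of the 23 members tested in microglia, 0 were called by edgeR, where 6.35% of all features were, and 15 passed an unadjusted p of 0.05, where 23.2% of features did. DESeq2 called 5, all higher in KIN, namely Gln-CTG-1, Gln-CTG-2, Gln-CTG-3, Gln-CTG-4 and Gln-TTG-1. It called 365 of 4786 features and 19 of 153 other cytosolic tRNAs. A higher value in KIN was found for 21 of 23 members, against 43.9% of features, and in 13 members the groups did not overlap, against 25% of features. The 21 include Asn-GTT-2, with 3, 2 and 2 counts in WT and 6, 3 and 5 in KIN. It reached 5 counts in 2 libraries only through KIN. The member median was 0.99, that of the other cytosolic tRNAs 0.91 (151 of 153 higher) and that of all features −0.09. The calls hung on single libraries. Without WT replicate 2, 12 of 22 members were called, all higher in KIN, with a log2FC of 2.05 for Gln-CTG-2, 2.03 for Gln-CTG-3, 2.24 for Gln-TTG-3, 1.69 for Asn-GTT-3 and 1.47 for Asp-GTC-1. In that fit 788 of 4702 features and 81 of 153 other cytosolic tRNAs were called. Without KIN replicate 1, Gln-CTG-1 alone of the members was called (log2FC 1.15), with 344 of 4759 features and 24 of 153 other cytosolic tRNAs. Without both of these libraries 12 members were again called, and among the anticodons Gln-CTG (1.76), Gln-TTG (1.83), Asn-GTT (1.45) and Asp-GTC (1.22) were called but Glu-CTC and Glu-TTC were not. There 947 of 4665 features and 93 of 152 other cytosolic tRNAs were called in the isodecoder fit. With all libraries the main fit called 0 anticodons and 6.83% of features. Other fits of all libraries did call anticodons, all higher in KIN. DESeq2 called Gln-CTG (1.40, adjusted p 0.0207) and Asn-GTT (1.16, 0.0462), 1 edgeR fit of all 18 libraries called Gln-CTG (1.43, 0.0354), and edgeR without the filter on low counts called Gln-CTG, Gln-TTG and Asn-GTT. In this order, these fits called 343 of 4659, 335 of 7909 and 379 of 53170 features. The miRNAs of the neural lineage (miR-9-5p and miR-9-3p, neither at 0) moved with genotype in this fraction, from 82.3 to 245 CPM in WT against 59.1 to 68.6 CPM in KIN. So did the neuronal list, from 67.1 to 175 CPM in WT against 54.6 to 58.8 CPM in KIN, and, upward, the erythroid list (3 miRNAs, of which miR-144-3p was at 0 in all WT libraries), from 17.3 to 22.2 CPM against 28.6 to 131 CPM. The part of these lists in the result was not tested.

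The same libraries stood apart in the make-up of the member tRNAs. Gln-TTG took 2.66% of the cytosolic tRNA counts in replicate 2 of WT microglia, against 1.13% and 1.17% in the other WT libraries. In KIN microglia it took 3.27% in replicate 1, against 1.87% and 1.80%. Asp-GTC-4 showed the opposite order, with 605, 245 and 589 counts in WT and 141, 892 and 912 counts in KIN. Replicate 2 of WT and replicate 1 of KIN were therefore each high in the glutamine anticodon and low in the rare aspartate isodecoder. The labels give no reason to set these libraries aside, but whether the labels are right could not be checked from Atxn2, so values with and without them are given.

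In neurons no difference between KIN and WT was detectable. All 21 tested members failed the call, as did all 4381 features (0%), and 0 members passed an unadjusted p of 0.05, where 4.79% of features did. DESeq2 called 0 as well. Asp-GTC shows the spread behind this. It had 1190, 11749 and 4122 CPM in WT and 6221, 5534 and 4049 CPM in KIN, so that the 3 KIN libraries fell inside the range of the WT libraries. The log2FC was −0.11 ± 0.58 for Asp-GTC, 0.27 ± 0.42 for Glu-CTC and −0.95 ± 0.69 for Glu-TTC (edgeR adjusted p 0.985, 0.916 and 0.865). The median over the members was −0.13, and it was 0.69 without WT replicate 2, the library with the highest tRNA values of the 3. That library also held 4.03% mitochondrial tRNA, against at most 0.723% in the other neuron libraries.

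**Figure D2:**
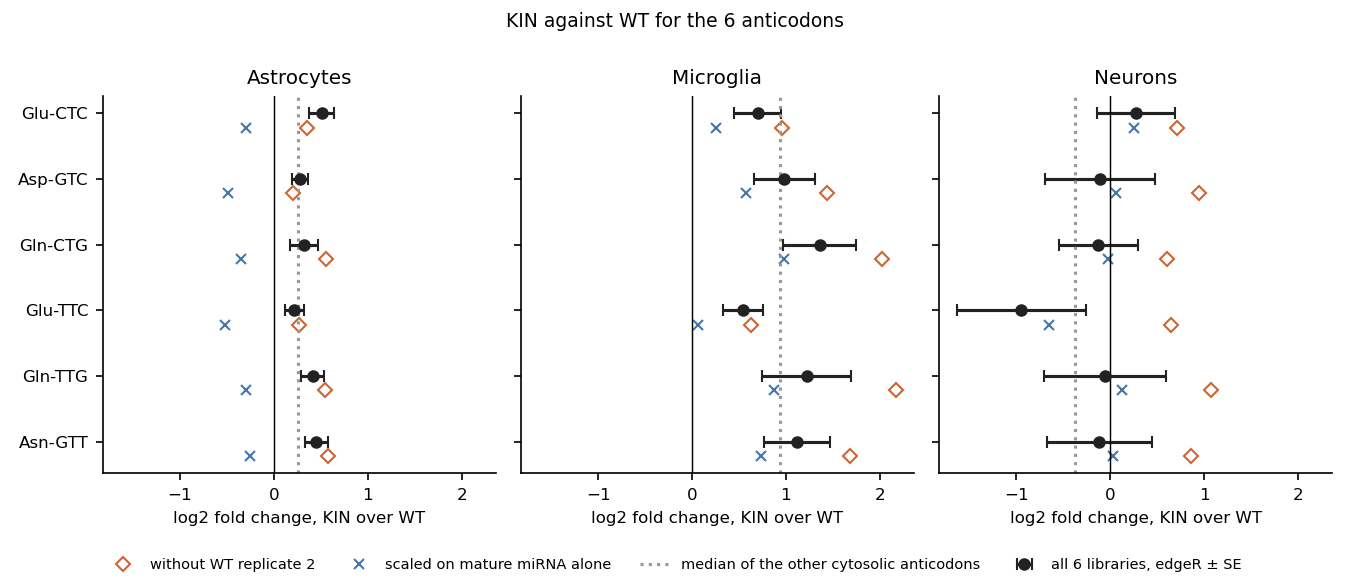
The log2FC of KIN over WT (x axis) of the 6 member anticodons (y axis) in astrocytes, microglia and neurons (panels), as filled points with the SE of edgeR as bars, 3 libraries a group, with open diamonds for the fit without WT replicate 2, crosses for scaling on mature miRNA alone and a dotted line at the median of the other cytosolic anticodons. All 6 filled points lie above 0 in both glial fractions, up to 1.36 for Gln-CTG in microglia, and the crosses of astrocytes all lie below 0.

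Whether the KIN effect itself differed between the glial fractions was tested as an interaction over their 12 libraries. It was larger in microglia for 19 of 23 members, with a median difference of 0.69 on the log2 scale against 0.57 for the other cytosolic tRNAs. The difference was 1.03 ± 0.44 for Gln-CTG (edgeR adjusted p 0.399), 0.68 ± 0.33 for Asp-GTC (0.505) and 0.18 ± 0.26 for Glu-CTC (0.924). By edgeR 0 members were called, where 0.377% of features were, and DESeq2 called 0 as well. An unadjusted p of at most 0.05 was reached by 7 of the 23 members, where 10.1% of features had it. The 7 include Gln-TTG-5, with 4, 5 and 3 counts in WT astrocytes and 2, 1 and 3 in KIN astrocytes. In microglia it had 5, 5 and 4 counts in WT and 9, 10 and 11 in KIN. Gln-TTG-5 and Asn-GTT-2, both among the 19 members above, reached 5 counts in 2 libraries only through microglia. Without replicate 2 of WT microglia, 7 members were called, among them Gln-CTG-2, Gln-CTG-3, Gln-TTG-1 and Gln-TTG-3. In that fit 278 of 6853 features and 32 of 156 other cytosolic tRNAs were called.

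The members took a larger share of the library in both KIN glial fractions, with no test that could pass. In astrocytes they held 4.28%, 3.52% and 3.91% of the counts in WT and 4.53%, 4.62% and 4.45% in KIN. In microglia they held 3.00%, 4.24% and 2.90% in WT and 5.52%, 5.20% and 5.07% in KIN. Neither pair of groups overlapped, and both reached p = 0.1, the lowest value that exact permutation, two-sided, can reach with 3 libraries a group (0.63 after Benjamini-Hochberg adjustment over 21 such comparisons). In neurons the share was 0.475%, 3.20% and 1.56% in WT and 2.08%, 1.74% and 1.41% in KIN, a range that overlapped fully (exact permutation p = 1). Within the cytosolic tRNA pool the members made up 32.0%, 37.4% and 34.0% of tRNA counts in WT microglia and 39.4%, 33.1% and 30.6% in KIN microglia, and these groups overlapped. Both glutamate anticodons took less of the pool in KIN microglia, opposite to their CPM. Glu-CTC took 16.2%, 16.8% and 17.6% in WT and 14.9%, 15.3% and 13.8% in KIN, and Glu-TTC took 4.62%, 3.596% and 4.94% in WT and 2.99%, 3.52% and 3.42% in KIN. Neither pair of groups overlapped, and these differences were not tested.

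**Figure D3:**
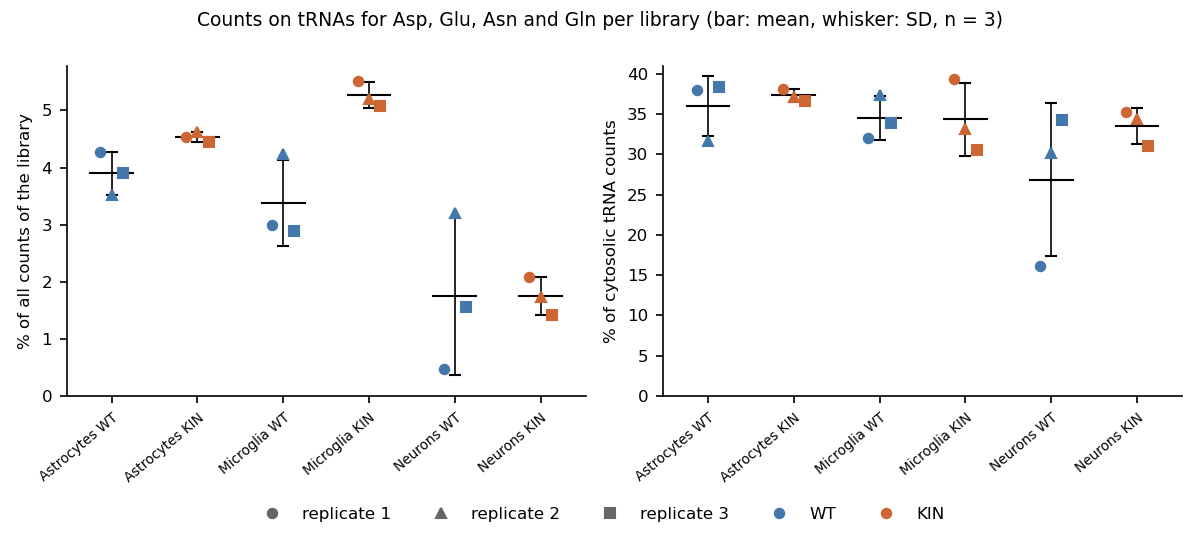
Counts on the member tRNAs as a percent of all counts of a library (left, y axis) and of its cytosolic tRNA counts (right, y axis), by fraction and genotype (x axis), with a point for each library and the mean ± SD of 3 as bars. On the left the KIN libraries of microglia lie between 5.07% and 5.52%, above the WT libraries, which reach 4.24%, and on the right the same groups overlap.

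To see how the fractions differ without the mutation, WT microglia were compared with WT astrocytes. The rare isodecoders Glu-CTC-2, Glu-CTC-5, Asp-GTC-3 and Asp-GTC-4 were called higher in microglia, while the abundant isodecoders with the same anticodons were not called. The rare glutamate isodecoder Glu-TTC-3 had a lower value in microglia and was not called (log2FC −0.64 ± 0.37, edgeR adjusted p 0.195). Glu-CTC-5 had 3.25, 3.38 and 3.50 CPM in astrocytes and 21.9, 19.3 and 32.8 CPM in microglia (log2FC 2.86 ± 0.39, edgeR adjusted p 0.000166). Glu-CTC-2 had 13.3, 8.06 and 11.7 CPM in astrocytes and 59.7, 48.8 and 96.8 CPM in microglia (log2FC 2.64 ± 0.36, edgeR adjusted p 0.000178). Both were several-fold higher in each microglial library than in any astrocyte library. Glu-CTC-1 had 15946, 10790 and 15059 CPM in astrocytes and 13857, 23980 and 13825 CPM in microglia, which overlapped (log2FC 0.31 ± 0.25, edgeR adjusted p 0.346). Among the aspartate tRNAs, Asp-GTC-4 (1.43 ± 0.31, edgeR adjusted p 0.00328) and Asp-GTC-3 (1.15 ± 0.40, 0.041) were higher in microglia, whereas Asp-GTC-1 had a log2FC of −0.28 ± 0.29.

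In all, 5 of 21 members were called between WT microglia and WT astrocytes, where 32.7% of features were, so the share of calls was below that background. The fifth was Asn-GTT-1, which was lower in microglia (log2FC −1.29 ± 0.44, edgeR adjusted p 0.0381) with 12.7, 18.0 and 12.2 CPM against 3.44, 9.83 and 4.57. The member median was −0.31 and that of all features −0.25, and 47 of 155 other cytosolic tRNAs were called. Glu-CTC-2, Glu-CTC-5 and Asp-GTC-4 were called in all 6 fits that left out 1 library, while Asp-GTC-3 and Asn-GTT-1 were called in that without replicate 2 of WT microglia but in none of the other 5. In the KIN libraries of the same fractions, which are other samples, they were called too, with a log2FC of 1.93, 2.14 and 2.33, as was Asp-GTC-3 with 1.39, whereas Asn-GTT-1 had 0.09 there. In KIN microglia, replicate 1 differed from the others, with 81 counts of Glu-CTC-2 against 379 and 343, and with 11 counts of Glu-CTC-5 against 128 and 108. Without replicate 2 of WT microglia 12 members were called, 4 higher and 8 lower in microglia, with 2025 of 6128 features and 76 of 155 other cytosolic tRNAs called. The microglial miRNAs moved with this comparison as the sort intends, and the neuronal and oligodendrocyte miRNAs were lower in microglia; their part in the tRNA differences was not tested.

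**Figure D4:**
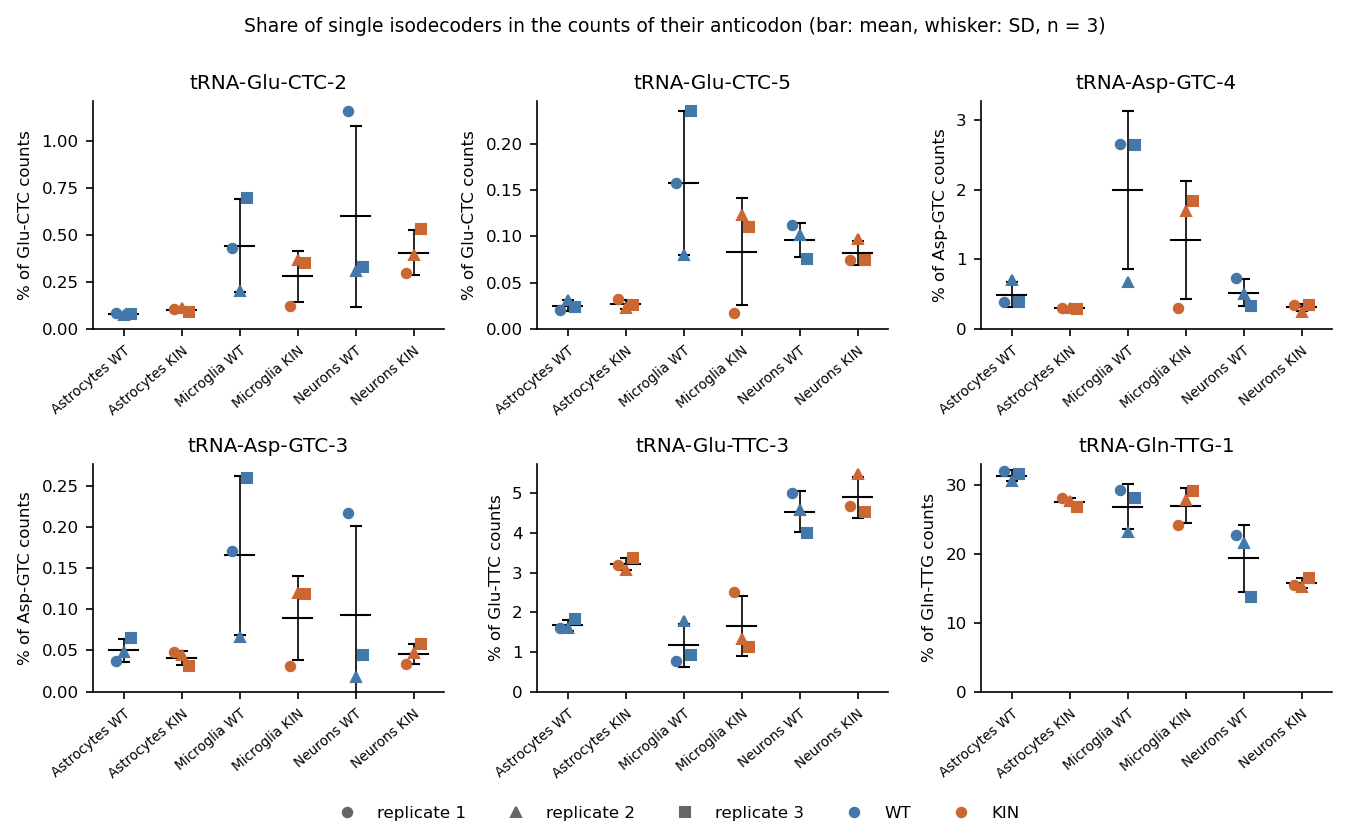
Percent of the counts of an anticodon (y axis) held by Glu-CTC-2, Glu-CTC-5, Asp-GTC-4, Asp-GTC-3, Glu-TTC-3 and Gln-TTG-1 (panels), by fraction and genotype (x axis), with a point for each library, marked by replicate number, and the mean ± SD of 3 as bars. Glu-CTC-2 stands at 0.0747% to 0.0833% in WT astrocytes and at 0.203% to 0.694% in WT microglia, and Glu-TTC-3 at 1.60% to 1.84% in WT and 3.07% to 3.38% in KIN astrocytes.

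The WT neuron fraction held less Gln-CTG and Asn-GTT than WT astrocytes, under the main scaling. Gln-CTG had 5062, 7741 and 4922 CPM in astrocytes and 667, 3143 and 1217 CPM in neurons (log2FC −1.82 ± 0.50, edgeR adjusted p 0.0258). Asn-GTT had 1067, 1393 and 1073 CPM in astrocytes and 68.6, 594 and 207 CPM in neurons (log2FC −2.02 ± 0.63, edgeR adjusted p 0.0386). These 2 of the 6 anticodons were called, where 32% of features were, so the share of calls was near that background. At the level of isodecoders 5 of 22 were called, a share below the 32.1% of features, with Gln-TTG-1 (−2.17 ± 0.72), Asn-GTT-3 (−1.93 ± 0.59), Gln-CTG-3 (−1.86 ± 0.46) and Gln-CTG-2 (−1.66 ± 0.48) lower and Glu-CTC-2 higher (1.16 ± 0.37). The other 4 anticodons had values between −1.12 ± 0.66 for Asp-GTC and −1.60 ± 0.73 for Gln-TTG and were not called in this fit. With the replicate number as a block, which rests on the weak correlations described next, all 6 anticodons were called lower in neurons. In that fit 1756 of 5627 features and 32 of 43 other anticodons were called. The log2FC was −1.60 for Glu-CTC (edgeR adjusted p 0.00631), −1.72 for Asp-GTC (0.0139), −2.08 for Gln-CTG (8.53e-05), −2.25 for Gln-TTG (0.00259), −2.41 for Glu-TTC (0.00169) and −2.49 for Asn-GTT (0.000295).

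These neuronal values depended on the fit and on single libraries. In WT astrocytes and WT neurons, the deviations of libraries with the same replicate number correlated weakly, by 0.163, 0.344 and 0.135. With this block 14 of 22 members were called, 13 lower and Glu-CTC-2 higher, where 2099 of 5757 features were called. Without replicate 2 of WT neurons 15 members were called, all lower, with 1826 of 5470 features and 105 of 156 other cytosolic tRNAs called. The count was 2 without replicate 1 of WT neurons and 0 without replicate 3, and 1, 0 and 1 without replicates 1, 2 and 3 of WT astrocytes. In these fits between 1011 and 1758 features were called. The KIN libraries of these fractions, which were more even, gave 18 called of 21 tested, all lower in neurons. There 2165 of 4847 features were called, as were 108 of 153 other cytosolic tRNAs. Of the 21 members tested there, Asn-GTT-1 and Gln-TTG-4 reached 5 counts in 2 libraries only through astrocytes. The log2FC was −2.58 for Asn-GTT-3 and −2.20 for Gln-CTG-2, whereas Glu-CTC-2 was not called there (0.37) nor in any fit with 1 library left out. Of the anticodons, Gln-CTG and Asn-GTT were called without replicate 1 and without replicate 2 of WT neurons and in none of the other 4 such fits. All 6 anticodons were called without replicate 2 of WT neurons, with the KIN libraries and without the filter on low counts, 5 in 1 edgeR fit of all 18 libraries and 3 with DESeq2. With the KIN libraries 2076 of 4722 features were called in the anticodon fit, and 34 of 43 other anticodons. With TMM factors from mature miRNA alone 21 of 22 members, Gln-TTG-1 excepted (−0.14), had a higher value in neurons, with 8 members called and a member median of 0.89, while the median of all features moved from −0.40 to 1.84. In the main fit the member median was −1.28, that of the other cytosolic tRNAs −0.76 (45 of 157 higher) and that of all features −0.40. With the KIN libraries these medians were −2.02, −1.71 (7 of 153 higher) and −0.04. No difference of the members from the other tRNAs was tested. The lower level in neurons was thus found relative to the bulk of features, in calls that hung on single libraries, and not relative to miRNA.

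Against WT microglia, the WT neuron fraction held less Glu-CTC. Glu-CTC had 15526, 24145 and 15083 CPM in microglia and 2017, 9537 and 6929 CPM in neurons (log2FC −1.57 ± 0.47, edgeR adjusted p 0.0296), and it was the only anticodon called in this fit, where 30.2% of features were called. The share of anticodons called was thus below that background. All 6 were called with the KIN libraries or without replicate 2 of WT neurons, 5 without the filter on low counts and 3 in 1 edgeR fit of all 18 libraries, in each case lower in neurons. Of 21 isodecoders 5 were called, all lower in neurons, a share below the 30.1% of features. They were Asp-GTC-4 (−2.43 ± 0.64), Glu-CTC-5 (−2.09 ± 0.53), Glu-CTC-1 (−1.54 ± 0.48), Glu-CTC-2 (−1.46 ± 0.40) and Asp-GTC-3. Asp-GTC-3 had 39, 24 and 58 counts in microglia and 3, 4 and 3 counts in neurons, so it passed the filter only through microglia and no fold is given for it. The count was 2, 4 and 1 without replicates 1, 2 and 3 of WT microglia and 5, 17 and 1 without replicates 1, 2 and 3 of WT neurons, and Glu-CTC as an anticodon was called without replicate 1 or 2 of WT neurons but in none of the other 4 such fits. In the fit with 17 calls, 1630 of 4736 features and 81 of 148 other cytosolic tRNAs were called. With factors from mature miRNA alone 18 of 21 members had a higher value in neurons and 5 were called higher. In that fit 3109 of 5010 features were called, 2896 of them higher. The median log2FC was 2.01 for all features and 0.85 for the members, so the members stayed below the bulk of features. Of the 5 isodecoders above, Glu-CTC-1 and Glu-CTC-2 then had a higher value in neurons, while Asp-GTC-3, Asp-GTC-4 and Glu-CTC-5 kept a lower one, and none of the 5 was called. In the main fit the member median was −1.09, that of the other cytosolic tRNAs −0.47 (50 of 151 higher) and that of all features −0.10.

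The balance between the synonymous anticodons, which needs no scaling of the library, was examined for both amino acids that have a pair. Glu-CTC exceeded Glu-TTC in counts by 3.51, 4.67 and 3.55 times in WT microglia and by 3.26, 2.03 and 3.29 times in WT astrocytes. These groups did not overlap (exact permutation p = 0.1, the smallest possible). In neurons the ratio was 5.86, 2.20 and 8.06 in WT and 7.25, 8.18 and 7.88 in KIN, and WT replicate 2 again stood apart. Gln-CTG exceeded Gln-TTG by 1.80, 2.22 and 1.98 times in WT astrocytes and by 1.89, 1.92 and 1.88 times in KIN astrocytes, ranges that overlapped. Gln-CTG-2 and Gln-TTG-3 share a run of 33 bases and reads were kept from 20 bases on, so some reads could fit both anticodons. How far such reads shaped the Gln ratio was not tested. In WT neurons the Gln ratio was 4.81 in replicate 1, a library with 194 Gln-TTG counts, against 1.52 and 1.76 in the others. Within Gln-TTG, the isodecoder Gln-TTG-1 took 32.0%, 30.5% and 31.5% of the counts in WT astrocytes, more than its 28.0%, 27.7% and 26.8% in KIN astrocytes, a difference that was not tested. It took between 15.1% and 16.5% in KIN neurons, the lowest range of a KIN fraction.

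Mitochondria make their own tRNAs for these residues (mt-Td for Asp, mt-Te for Glu, mt-Tn for Asn and mt-Tq for Gln), and these have entries of their own in the table. In KIN astrocytes mt-Te fell, with 1395, 1541 and 1389 CPM (scaled to the library total) in WT and 909, 949 and 959 in KIN (log2FC −0.47 ± 0.10, edgeR adjusted p 0.0256), although its fold was under the limit for a call. The other 3 had a log2FC between −0.25 and −0.14 there with adjusted p-values of 0.109 to 0.236, and the median of all 22 mitochondrial tRNAs was −0.26. In KIN microglia the 4 had values between 0.26 for mt-Tn and 0.73 for mt-Te and none was called. Between WT fractions all 22 mitochondrial tRNAs were called lower in microglia than in astrocytes, with a log2FC of −2.25 ± 0.30 for mt-Td, −1.88 ± 0.21 for mt-Te, −2.40 ± 0.20 for mt-Tn and −1.71 ± 0.20 for mt-Tq. The cytosolic Asp, Glu and Gln anticodons had values between −0.50 and 0.31 in the same comparison, and Asn-GTT was lower in microglia (log2FC −0.99 ± 0.34, edgeR adjusted p 0.0353), just under the fold limit for a call.

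Genes that charge, modify, cut or mature these tRNAs were looked up as 4 lists with 35 genes and 245 transcripts. The libraries are made for small RNA, and almost none of these transcripts had enough counts. Of the 10 synthetase genes, only Eprs transcripts were tested, in a single comparison each, and none was called. Of the 15 genes for queuine insertion and other modification and the 2 for cleavage (Ang and its inhibitor Rnh1), 0 transcripts were tested. In the maturation list only Rpph1, the RNA of RNase P that trims the 5′ end of tRNA precursors, was tested. Rpph1 was called higher in WT neurons than in WT astrocytes (log2FC 2.37 ± 0.28, edgeR adjusted p 0.000742) and than in WT microglia (1.55 ± 0.33, 0.00533). Between KIN and WT it had a log2FC of 0.55 ± 0.19 in astrocytes (edgeR adjusted p 0.0755) and −0.70 ± 0.26 in microglia (0.123), and was not called.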

How the data were processed

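Small RNA was sequenced from 18 libraries (3 in each of 6 groups, taken with their replicate numbers from the sample titles). The authors trimmed the reads with Cutadapt 4.6 (minimum length 20), placed them with Bowtie2 2.4.4 in local mode in successive rounds on miRNA, tRNA, piRNA and Ensembl transcripts of mm39, and counted with HTSeq 2.0.2 without strand or mapping quality limit. The deposited values used here are raw counts per feature, and a read that fits several tRNA copies was counted at a single placement. A further 36 per-library columns on other scales and the authors' log2 fold changes and p-values from DESeq2 were not used.

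Copies were summed per isodecoder and, in another fit, per anticodon, with the rest of the 203513 features kept as they were. Features that reached 5 counts in 2 or more libraries of a comparison entered edgeR 4.0.16 and its quasi-likelihood test (limma 3.58.1, R 4.3.3), with library totals scaled by TMM factors and p-values adjusted by Benjamini and Hochberg over all features. DESeq2 1.42.0 was an alternative. The test was run on simulated data with a single spread for all fractions, smaller than that of the microglia and neuron fits, and without libraries that stood apart. That check therefore does not cover those fits. Shares and ratios were compared by exact permutation. The members and lists were chosen with earlier results of these data known. Named were the 6 anticodons, the leading isodecoder of each, the called isodecoders with the largest changes and the 4 mitochondrial tRNAs; other isodecoders were chosen after their values were seen. The tRNA sequences were located in GRCm39 and annotated with GENCODE vM39, and some Glu tRNA sequences are not reported here.

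The labels do not say that a replicate number marks a brain or a littermate pair, so p-values measure the spread between these samples only. Deviations from the group means correlated between libraries of the same number by 0.163, 0.344 and 0.135 for WT astrocytes and WT neurons, over 0.1 in each pair, which was taken as pairing, and in no other comparison was every pair over 0.1. These correlations are weak. Replicate 1 of WT astrocytes correlated more with another WT neuron library, and the KIN pairs of these fractions had −0.07, 0.19 and −0.001. Depth was 1211118 to 4316748 counts a library.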

Additional observations from a re-analysis of the deposited data

How the results depend on the processing

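The number of called isodecoders changed with the processing in 6 of the 7 comparisons, and the cause was not tested. In KIN against WT astrocytes it was 1, and 0 with library totals or with 1 fit of all 18 libraries and 2 (Asn-GTT-1 and Asp-GTC-4, both lower) with factors from mature miRNA. The miRNA factors gave calls for 1340 of 5541 features, 1324 of them lower, so the share of members was below that background. In microglia it was 0, and 5 with DESeq2, 6 without the filter on low counts, 12 without both libraries that stood apart (chosen after seeing the data), and 0 to 12 over the fits that left out 1 library. In WT microglia against WT astrocytes it was 5, and 3 with miRNA factors, 3 without the filter, 9 without both WT replicates 2 (chosen after seeing the data), and 3 to 12 with 1 library left out. In WT neurons against WT astrocytes it was 5, and 8 with miRNA factors, 8 with DESeq2, 12 without the filter, 14 with the replicate block, 12 with 1 fit of all libraries, 18 with KIN libraries, and 0 to 15 with 1 library left out. In WT neurons against WT microglia it was 5, and 13 without the filter, 14 with the block, 11 with 1 fit of all libraries, 21 with KIN libraries, and 1 to 17 with 1 library left out. Of the 22 members tested with KIN libraries, Asn-GTT-1, Asn-GTT-2 and Gln-TTG-5 reached 5 counts in 2 libraries only through microglia. The 21 calls thus include members that passed only through the higher fraction. So does each count with 1 library left out, through Asp-GTC-3. In the interaction it was 0, and 1 with the block (Gln-CTG-3), 6 without the 3 glial libraries that stood apart (chosen after seeing the data), and 0 to 7 with 1 library left out. In neurons no setting called a member. The number of all features called moved as well. In KIN against WT microglia it was 401 of 53333 without the filter. In WT microglia against WT astrocytes it was 1491 of 6243 with miRNA factors and 2527 of 5770 without both WT replicates 2. In the interaction it was 384 of 6583 without the 3 glial libraries that stood apart. In WT neurons against WT astrocytes it was 1850 of 5757 in the main fit, 3058 of 5757 with miRNA factors and 2165 of 4847 with KIN libraries. In WT neurons against WT microglia it was 1510 of 5010 in the main fit and 2433 of 4726 with KIN libraries. The block changed no other count of called isodecoders by over 1.5 times. Of the anticodons it took the calls from 2 to 6 in WT neurons against WT astrocytes, from 1 to 6 against WT microglia, and from 0 to 1 in WT microglia against WT astrocytes (Asn-GTT, −1.13) and in the interaction (Gln-CTG, 1.16, edgeR adjusted p 0.0497).

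Directions turned as follows. With miRNA factors the log2FC in KIN astrocytes was −0.26 for Asn-GTT, −0.49 for Asp-GTC, −0.36 for Gln-CTG, −0.30 for Gln-TTG, −0.29 for Glu-CTC and −0.52 for Glu-TTC. In KIN neurons it was 0.035, 0.066 and 0.13 for Asn-GTT, Asp-GTC and Gln-TTG with miRNA factors, 0.014 for Gln-TTG with DESeq2, 0.024, 0.022, 0.023 and 0.077 for Asn-GTT, Asp-GTC, Gln-CTG and Gln-TTG without the filter, and 0.27, 0.37, 0.11 and 0.45 for the same with the block. In WT neurons against WT astrocytes miRNA factors gave 0.20 for Asn-GTT and Asn-GTT-3, 1.01 for Asp-GTC, 0.49 for Gln-CTG, 0.54 for Gln-CTG-2, 0.37 for Gln-CTG-3, 0.58 for Gln-TTG, 0.92 for Glu-CTC and 0.52 for Glu-TTC. Against WT microglia they gave 1.03 for Asn-GTT, 1.20 for Asp-GTC, 0.83 for Gln-CTG, 0.88 for Gln-TTG, 0.54 for Glu-CTC and Glu-CTC-1, 0.68 for Glu-CTC-2 and 0.48 for Glu-TTC. With KIN libraries, microglia against astrocytes gave 0.089 for Asn-GTT-1, 0.38 for Asp-GTC, 0.51 for Gln-CTG, 0.35 for Gln-TTG and 0.12 for Glu-TTC. Without the filter the interaction of Glu-CTC was −0.017.

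Leaving out 1 library at a time turned some directions. In KIN neurons the log2FC ran from −0.57 to 0.86 for Asn-GTT, −0.60 to 0.95 for Asp-GTC, −0.49 to 0.60 for Gln-CTG, −0.57 to 1.07 for Gln-TTG, −0.14 to 0.72 for Glu-CTC and −1.44 to 0.65 for Glu-TTC. It ran from −0.31 to 0.019 for Glu-TTC in WT microglia against WT astrocytes and from −0.024 to 0.34 for the interaction of Glu-CTC. The share of tRNA counts on the members differed by −0.843 to 2.50 percentage points in KIN astrocytes and by −2.62 to 1.76 in KIN microglia, and their share of library counts by −0.633 to 0.728 in KIN neurons. The log2 ratio of Gln-CTG to Gln-TTG differed by −0.14 to 0.0053 in KIN astrocytes, −0.12 to 0.11 in KIN microglia, −0.77 to 0.064 in KIN neurons, −0.28 to 0.55 in WT neurons against WT astrocytes and −0.37 to 0.46 against WT microglia, where that of Glu-CTC to Glu-TTC differed by −0.11 to 0.83.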
